A study of Rattus norvegicus with 32 samples.

Results

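The respiratory chain subunits encoded by mitochondrial DNA were followed in the gastrocnemius, the large calf muscle, of rats that had been kept in the cold and of rats that lacked UCP1. The genes were chosen by name: Mt-nd1, Mt-nd2, Mt-nd3, Mt-nd4 and Mt-nd5 of complex I, Mt-cyb of complex III, Mt-co1, Mt-co2 and Mt-co3 of complex IV, and Mt-atp6 of complex V. Of these 10 genes, 9 were found by their symbol among the 12901 genes of the deposited count table, and Mt-nd4 was not analysed here. All 9 passed the filter on low counts in the fit over 11594 genes.

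Mitochondria keep a small circular genome that encodes a core set of respiratory chain proteins, the ribosomal RNAs and the transfer RNAs needed to make them. Both strands are transcribed as long precursors by the polymerase Polrmt with the factors Tfam and Tfb2m, and the precursors are cut at the transfer RNAs into single messages, so the abundance of each message depends on transcription and on its own stability. The proteins join a much larger set of nuclear-encoded subunits in complexes I, III, IV and V, which pump protons and make ATP, and the supply of ATP to contracting muscle rests on them. In brown fat UCP1 lets protons return without making ATP and so releases heat.

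The 4 groups were control (wild-type) rats after 2 weeks at 4 °C (control_4C, 7 libraries), control rats at room temperature (control_RT, 7 libraries), UCP1 knockout rats after 2 weeks at 4 °C (KO_4C, 9 libraries) and UCP1 knockout rats at room temperature (KO_RT, 9 libraries). All rats were male, 20 weeks old and fed chow, and the labels give no strain and no details of the knockout allele. The protocol counts 7 wild-type and 9 knockout rats and does not say whether the room temperature and cold libraries came from separate animals. The p-values below weigh each group difference against the spread among these libraries, taken as independent. If the same rats gave both libraries, the main fit leaves out that pairing. RNA was prepared with Trizol and sequenced from the 3′ end with QuantSeq, a method that primes on poly(A), so a level given here is the number of 3′ reads assigned to a gene and depends on the tail of the message as well as on its abundance. In a bulk sample, fewer mitochondria-rich cells and less mitochondrial RNA per cell cannot be told apart.

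Library totals lay between 7275508 and 25846976 counts. The deleted gene, Ucp1, was not analysed here and gives no check of genotype, while all 12 fast-fibre and general muscle markers were detected in all 4 groups. 4 libraries were set apart from the others: control_RT replicates 2 and 3 and KO_RT replicates 1 and 3. They had the lowest values of a transcript-loss index, the mean log2 CPM of 107 nuclear genes chosen after the data were seen. The index genes were those low in KO_RT replicate 3, so its own low value follows from that choice. The 4 index values were 3.98, 4.45, 4.47 and 3.93, and the next lowest were control_RT replicates 6 and 5 with 4.68 and 4.79. The index was 6.04 ± 0.146 in control_4C and 4.86 ± 0.554 in control_RT (SD, n = 7 each), without overlap, and 6.09 ± 0.167 in KO_4C and 5.65 ± 0.856 in KO_RT (SD, n = 9 each), with overlap. The fits were also run without the 4 libraries and with the index as a covariate, and a value from them stands beside each of the 9 genes whose cold call they changed. In control rats the index did not overlap between temperatures, so as a covariate it cannot be told apart from cold. The index genes were also among the genes tested. A control call lost or gained with the index therefore does not show whether cold changed the gene.

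Mitochondrially encoded messages took a smaller share of the muscle RNA reads in the cold. The 9 genes held 6.75%, 8.32% and 9.86% of a library's counts in control_4C (lowest, median, highest), against 10.01%, 10.5% and 11.5% in control_RT. Every cold control library lay below every room temperature control library, and the means differed by -2.37 percentage points (8.30% ± 1.02 and 10.7% ± 0.549, SD, n = 7 each). In knockout muscle the share was 7.89%, 9.05% and 11.2% in KO_4C, against 8.69%, 10.3% and 12.3% in KO_RT. These groups overlapped, and the means differed by -1.15 percentage points (9.48% ± 1.24 and 10.6% ± 1.14, SD, n = 9 each). The share is given as a description, with no test.

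**Figure D1:**
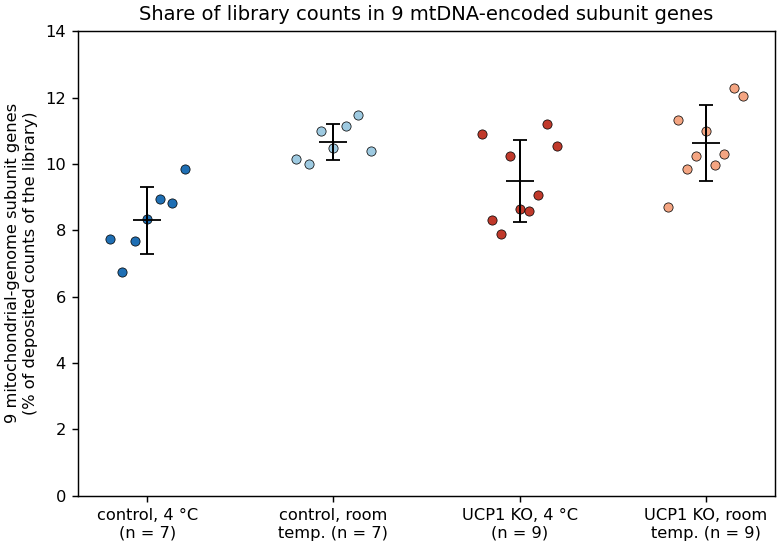
Share of each library's deposited counts (percent, vertical axis) held by the 9 mitochondrial-genome subunit genes, with 1 point per library and the mean ± SD of each group. The control_4C libraries lie between 6.75% and 9.86%, all below the lowest control_RT library at 10.01%, while KO_4C and KO_RT overlap.

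Mt-atp6, subunit a of the ATP synthase and part of its proton channel, alone held 3.41% ± 0.529 of all counts in control_4C and 4.66% ± 0.359 in control_RT (SD, n = 7 each), and 4.09% ± 0.634 in KO_4C and 4.35% ± 0.406 in KO_RT (SD, n = 9 each). The 3 complex IV genes together held 2.57% ± 0.276 in control_4C and 3.15% ± 0.208 in control_RT, and 2.75% ± 0.315 in KO_4C and 3.21% ± 0.372 in KO_RT. The 4 complex I genes held 1.34% ± 0.174 in control_4C and 1.86% ± 0.0914 in control_RT, and 1.56% ± 0.229 in KO_4C and 1.92% ± 0.216 in KO_RT. Mt-cyb held 0.984% ± 0.0999 in control_4C and 0.993% ± 0.122 in control_RT, and 1.08% ± 0.137 in KO_4C and 1.15% ± 0.239 in KO_RT. The share of Mt-cyb in all counts thus differed between temperatures by less than 1 SD in both genotypes. These shares are of 3′ reads and were not scaled for transcript length, so they are no measure of relative protein or of molar message.

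After 2 weeks of cold, 7 of the 9 genes fell in control muscle and 0 rose (edgeR quasi-likelihood test, Benjamini-Hochberg adjusted p under 0.05). Over all genes tested, 8.28% were called lower and 12.4% higher in this comparison. The median log2 change of the 9 genes was -0.60, against 0.03 over all genes tested. Mt-nd1, Mt-nd2, Mt-nd3, Mt-nd5 and Mt-co3 had no overlap between the groups, 5 of 9 genes, where 2.34% of all genes tested were lower without overlap. Mt-cyb and Mt-co2 did not pass the test. Values below are CPM normalised with TMM factors, given as the lowest, median and highest library of a group.

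Among the complex I genes in control rats, Mt-nd5, a subunit of the proton-pumping membrane arm, had 494, 583 and 829.3 CPM in control_4C, against 971, 1045 and 1192 CPM in control_RT. It fell by 42.0% (log2 -0.79 ± 0.11, SE, adjusted p = 8.31e-06), and all 7 cold libraries lay below all 7 at room temperature. Mt-nd1, the membrane subunit next to the ubiquinone site, had 6379, 8071 and 10053 CPM in control_4C, against 10756, 12278 and 14665 CPM in control_RT. It fell by 35.1% (log2 -0.62 ± 0.11, adjusted p = 0.000129), again with no overlap. Mt-nd2, another antiporter-like subunit of the membrane arm, had 2775, 3369 and 4731 CPM in control_4C, against 4881, 5161 and 6048 CPM in control_RT. It fell by 34.3% (log2 -0.61 ± 0.15, adjusted p = 0.00294), and the highest cold library stayed just under the lowest room temperature one. Mt-nd3, a small membrane subunit near the junction of the 2 arms of the complex, had 455, 564 and 737 CPM in control_4C, against 767, 848 and 972 CPM in control_RT. It fell by 33.97% (log2 -0.60 ± 0.13, adjusted p = 0.00147), without overlap.

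Mt-cyb, cytochrome b of complex III and the only subunit of that complex encoded by mitochondrial DNA, had 7946, 8864 and 10833.5 CPM in control_4C, against 8086, 10633 and 11395 CPM in control_RT. The groups overlapped over most of their range and 4 of 7 cold libraries lay below the room temperature mean. The lowest control_RT value came from replicate 2, one of the 4 libraries that stood apart. The other control_RT libraries lay between 10303 and 11395 CPM, above those 4 cold libraries. The log2 change of Mt-cyb was -0.16 ± 0.12 (adjusted p = 0.378, 95% interval -0.41 to 0.09), the one nearest to 0 among the 9 genes. Without the 4 libraries that stood apart it was -0.24 (adjusted p = 0.153). With the transcript-loss index as a covariate it was -0.50 (adjusted p = 0.0174).

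The 3 complex IV genes did not move alike in control rats. Mt-co3, a core subunit that carries no redox centre, had 5365, 6852 and 8399 CPM in control_4C, against 9261, 12026 and 13392 CPM in control_RT. It fell by 41.5% (log2 -0.77 ± 0.11, adjusted p = 1.95e-05), with no overlap between the groups. Mt-co1, the catalytic subunit that reduces oxygen, had 3314, 4048 and 5342 CPM in control_4C, against 4549.7, 5289 and 6893 CPM in control_RT. It fell by 27.0% (log2 -0.45 ± 0.12, adjusted p = 0.00482), and 6 of 7 cold libraries lay below all libraries at room temperature. This call was lost with the transcript-loss index as a covariate (log2 -0.36, adjusted p = 0.171). Mt-co2, which accepts electrons from cytochrome c, had 10487, 13398 and 15988 CPM in control_4C, against 13289, 15788 and 17212.5 CPM in control_RT. The groups overlapped, and its log2 change of -0.23 ± 0.11 did not pass the test (adjusted p = 0.138, 95% interval -0.46 to -0.00), although 6 of 7 cold libraries lay below the room temperature mean. With the index as a covariate Mt-co2 passed (log2 -0.45, adjusted p = 0.0441).

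Mt-atp6 had 24467, 33535 and 42167 CPM in control_4C, against 41839, 49639.8 and 57903 CPM in control_RT. Only the highest cold library reached into the room temperature range. It fell by 34.2% (log2 -0.60 ± 0.12, adjusted p = 0.000481). Each of the 7 genes that fell was below the control_RT mean in 7 of 7 cold libraries. The count was also 7 without the 4 libraries that stood apart and 8 with the index as a covariate.

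**Figure D2:**
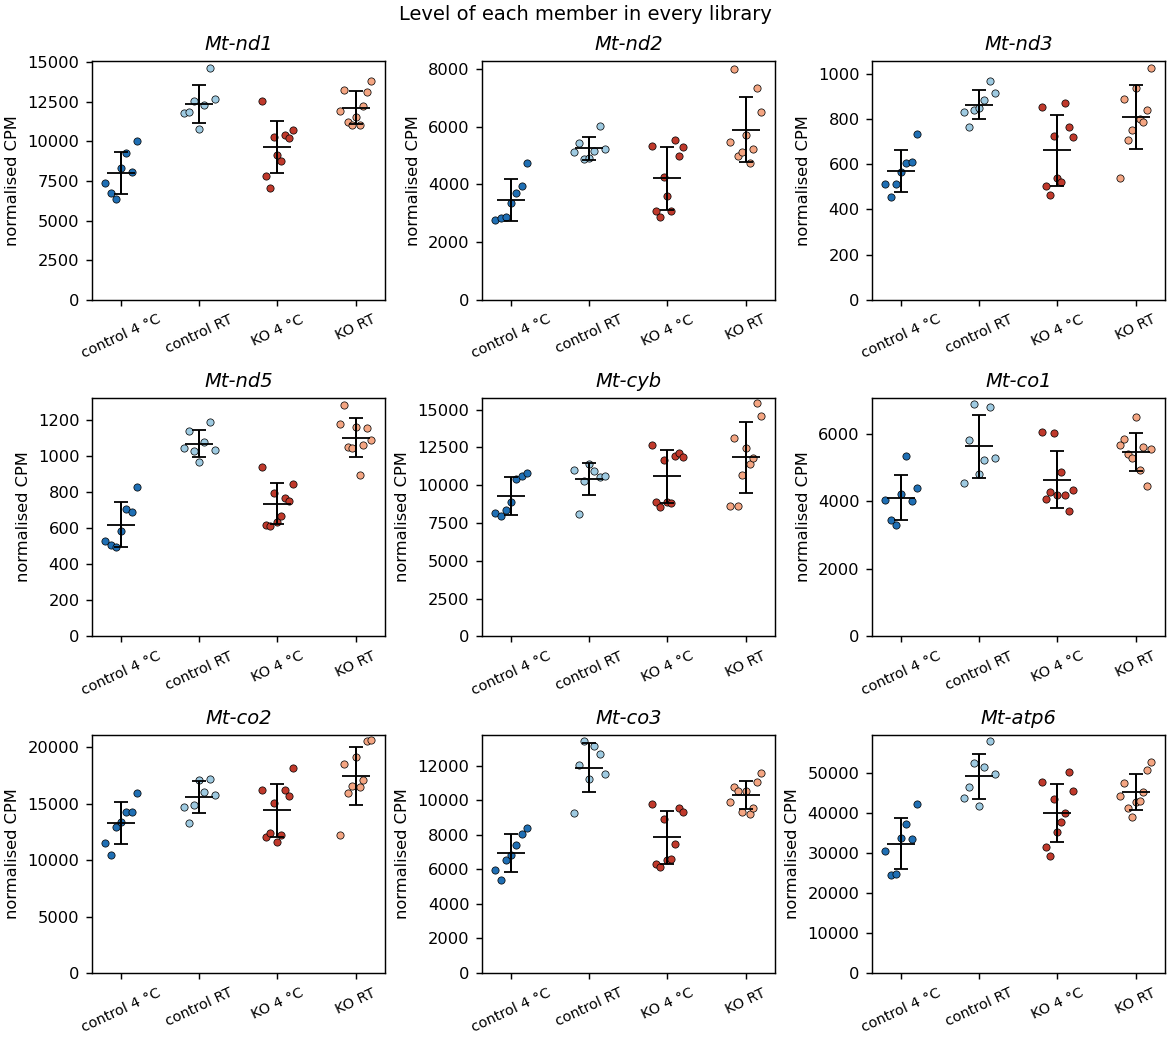
Level of each of the 9 genes (normalised CPM, vertical axes from 0) in every library, with 1 point per library and the mean ± SD of each group. Mt-nd1, Mt-nd2, Mt-nd3, Mt-nd5 and Mt-co3 show no overlap between control_4C and control_RT, while all 9 genes overlap between KO_4C and KO_RT.

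In knockout muscle 4 of the 9 genes fell in the cold and 0 rose. Over all genes tested, 6.28% were called lower and 7.49% higher. The 4 genes were Mt-nd1, Mt-nd2 and Mt-nd5 of complex I and Mt-co3 of complex IV. The median log2 change of the 9 genes was -0.29, against 0.01 over all genes tested. The groups overlapped for all 9 genes, where 0.681% of all genes tested were lower without overlap. This count moved with the set of libraries: fits that left out 1 library called 4 to 7 genes. It reached 7 without KO_4C replicate 1, which had the highest Mt-nd1 level of its group. Mt-nd3 (adjusted p = 0.0354), Mt-co1 (0.0383) and Mt-co2 (0.0333) were then added. The count was 6 without the 4 libraries that stood apart and 7 with the transcript-loss index as a covariate.

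Mt-nd5 had 610.5, 754 and 941 CPM in KO_4C, against 895, 1091 and 1286 CPM in KO_RT. It fell by 33.1% (log2 -0.58 ± 0.09, adjusted p = 4.22e-05), with 8 of 9 cold libraries below all libraries at room temperature. Mt-nd2 had 2863, 4261 and 5549.5 CPM in KO_4C, against 4746, 5482 and 8022 CPM in KO_RT. It fell by 28.5% (log2 -0.48 ± 0.13, adjusted p = 0.00868), and all 9 cold libraries lay below the room temperature mean although the ranges overlapped. Mt-nd1 had 7047, 10209.7 and 12542.5 CPM in KO_4C, against 11014, 11924 and 13808 CPM in KO_RT. It fell by 20.4% (log2 -0.33 ± 0.09, adjusted p = 0.0154), with 8 of 9 cold libraries below the room temperature mean. Mt-co3 had 6127, 7490.2 and 9779.6 CPM in KO_4C, against 9213, 10544 and 11580.5 CPM in KO_RT. It fell by 23.7% (log2 -0.39 ± 0.10, adjusted p = 0.0063), with 9 of 9 cold libraries below the room temperature mean and 6 of 9 below all libraries at room temperature.

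The other 5 genes did not pass the test in knockout muscle. Mt-nd3 had 462, 721 and 870.4 CPM in KO_4C, against 539, 799 and 1029.55 CPM in KO_RT (log2 -0.29 ± 0.12, adjusted p = 0.0937). The lowest KO_RT value came from replicate 1, which is one of the 4 libraries that stood apart, and the adjusted p was 0.0217 without them and 0.0188 with the index as a covariate. Mt-co2 had 11589.5, 15092 and 18186 CPM in KO_4C, against 12256, 17146 and 20636.5 CPM in KO_RT (log2 -0.28 ± 0.10, adjusted p = 0.0552). This gene lay at the threshold: it passed with DESeq2 (adjusted p = 0.0261), with RLE factors (0.0382), without the 4 libraries (0.0106), with the index (0.0114) and in 19 of the 32 fits that left out 1 library. Mt-co1 had 3726, 4290.5 and 6054 CPM in KO_4C, against 4472, 5544 and 6491 CPM in KO_RT (log2 -0.24 ± 0.10, adjusted p = 0.121). Mt-cyb had 8540.2, 11665.5 and 12677 CPM in KO_4C, against 8630.4, 11820.2 and 15410.4 CPM in KO_RT (log2 -0.16 ± 0.11, adjusted p = 0.351), and it passed with the index as a covariate (-0.27, adjusted p = 0.0459). The lowest KO_RT values of Mt-cyb, 8630 and 8658 CPM, came from replicates 3 and 1, both among the 4 libraries that stood apart. Without those 4 libraries its log2 change was -0.27 (adjusted p = 0.0675). Mt-atp6 had 29177, 39874.5 and 50286.5 CPM in KO_4C, against 38866.5, 44322 and 52804.5 CPM in KO_RT (log2 -0.17 ± 0.10, adjusted p = 0.297). The groups overlapped for all 5 genes. The 95% intervals ran between -0.38 and 0.06 for Mt-cyb and between -0.39 and 0.04 for Mt-atp6.

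**Figure D3:**
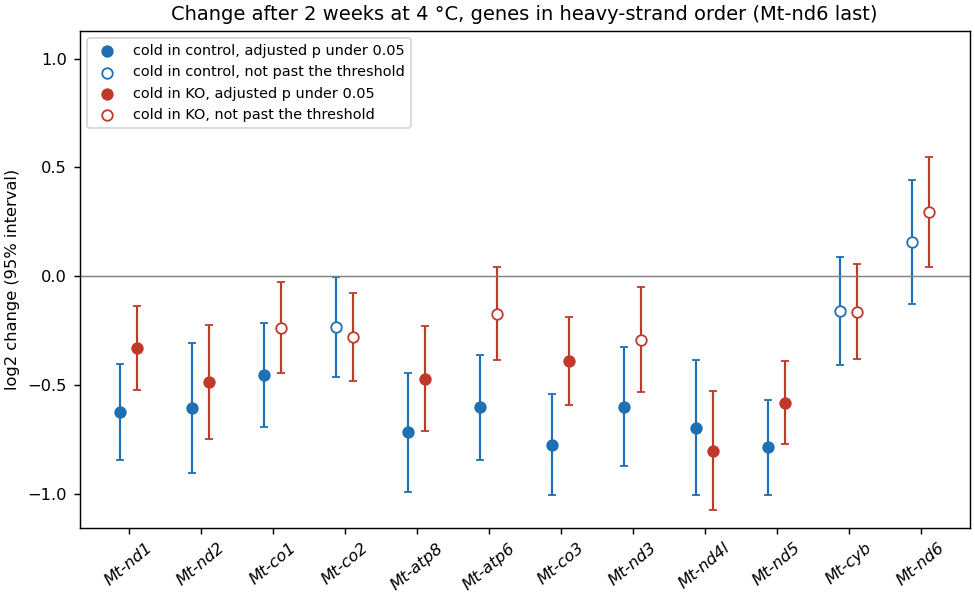
Log2 change after 2 weeks at 4 °C (vertical axis, with 95% interval) in control rats, left, and in knockout rats, right, for the 12 mitochondrial-genome genes in their order on the heavy-strand transcript, with Mt-nd6 of the other strand last. Filled points passed an adjusted p of 0.05. All 9 members lie below 0 in both genotypes, and Mt-cyb is the member nearest to 0 in both, in the fit with all 32 libraries.

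3 further protein genes of the mitochondrial genome were in the table. Mt-nd4l of complex I, whose message is joined to that of Mt-nd4, had 79.6, 108 and 138 CPM in control_4C, against 154, 179 and 197 CPM in control_RT. It fell by 38.3% in control rats (log2 -0.70 ± 0.15, adjusted p = 0.00123) and fell by 42.6% in knockout rats (log2 -0.80 ± 0.13, adjusted p = 6.47e-05). Mt-atp8 of complex V, which shares its message with Mt-atp6 and overlaps it in sequence, fell by 39.2% in control rats (log2 -0.72 ± 0.13, adjusted p = 0.000304) and fell by 27.9% in knockout rats (log2 -0.47 ± 0.12, adjusted p = 0.00535). No source used here says how reads were split within these shared messages, so values within each pair are uncertain.

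Mt-nd6 is the complex I subunit on the opposite strand, and in human cells its message carries no long poly(A) tail. It had 259, 322 and 371 CPM in control_4C, against 221, 259 and 391.8 CPM in control_RT. It had 209, 255 and 351 CPM in KO_4C, against 143, 220.2 and 270.0 CPM in KO_RT. Its log2 change in the cold was 0.16 ± 0.14 in control rats (adjusted p = 0.454) and 0.29 ± 0.12 in knockout rats (adjusted p = 0.108), so neither passed the test and both estimates had the opposite sign to the 9 members. Mt-nd6 and Mt-nd5 lie on opposite strands with adjoining ends, and no source used here says whether counting used the strand. The ribosomal RNA genes Mt-rnr1 and Mt-rnr2 were not analysed here.

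Markers of fibre type and of other cells were called in the cold as well, though fewer in control rats with the transcript-loss index as a covariate. Over all genes tested, 12.4% were called higher and 8.28% lower in control rats, and 7.49% and 6.28% in knockout rats. Of 11 slow-fibre genes 10 rose in each genotype and 0 fell, with summed levels of 13576 to 23079 CPM in control_4C and 7106 to 13430.3 CPM in control_RT, and of 11406 to 23253 CPM in KO_4C and 6901 to 16267.5 CPM in KO_RT. Of 12 fast-fibre and general muscle genes 5 fell in control rats and 4 in knockout rats, with sums of 130704 to 182660.0 CPM in control_4C and 172132 to 219153 CPM in control_RT, and of 138345 to 207676 CPM in KO_4C and 166594 to 245709 CPM in KO_RT. Of 6 adipocyte genes 5 rose in control rats and 2 in knockout rats, with sums of 584 to 779.8 CPM in control_4C and 302 to 402 CPM in control_RT, and of 708 to 1327 CPM in KO_4C and 279 to 531 CPM in KO_RT. Of 6 macrophage genes 3 rose in control rats and 4 in knockout rats, with sums of 129 to 231 CPM in control_4C and 99.2 to 157 CPM in control_RT, and of 115 to 209.9 CPM in KO_4C and 78.9 to 109 CPM in KO_RT. Of 5 erythroid genes 3 rose in control rats and 1 in knockout rats, with sums of 278 to 2456 CPM in control_4C and 156 to 533 CPM in control_RT, and of 379.9 to 895 CPM in KO_4C and 164 to 565 CPM in KO_RT.

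Of 4 smooth muscle genes 3 rose in control rats and 0 in knockout rats, with sums of 133 to 307 CPM in control_4C and 116 to 157 CPM in control_RT, and of 150.5 to 402 CPM in KO_4C and 118 to 359 CPM in KO_RT. Of 7 intestinal epithelial genes 3 rose in control rats and 0 in knockout rats, with sums of 214 to 915 CPM in control_4C and 194 to 678 CPM in control_RT, and of 175 to 262 CPM in KO_4C and 213 to 342 CPM in KO_RT. Of 5 endothelial genes 1 rose in each genotype, of 4 fibroblast genes 1 rose in control rats and 1 fell in knockout rats, and of 4 Schwann cell genes 0 passed in control rats and 2 rose in knockout rats. Their sums were 126 to 174 CPM, 624 to 1067 CPM and 39.0 to 67.6 CPM in control_4C, against 128 to 170.0 CPM, 587 to 1065 CPM and 22.1 to 179 CPM in control_RT. In knockout rats they were 149 to 194 CPM, 492 to 1149 CPM and 29.8 to 128 CPM in KO_4C, against 125 to 218 CPM, 686 to 1723 CPM and 11.9 to 62.5 CPM in KO_RT. With the index as a covariate the control counts were 1 of 11 slow-fibre genes higher (median log2 0.61, against 0.94 without it), 1 of 12 muscle genes lower, 3 adipocyte, 2 macrophage and 1 endothelial gene higher, and 0 for the erythroid, smooth muscle, intestinal, fibroblast and Schwann lists. In knockout rats the index left 9 slow-fibre genes higher and 3 muscle genes lower. Without the 4 libraries 10 slow-fibre genes were higher in each genotype, while 1 smooth muscle, 2 erythroid, 2 intestinal and 0 fibroblast genes were higher in control rats. No marker of any of these lists was at 0 throughout a group. The part of fibre type and of other cells in the change of the mitochondrial genes was not tested.

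The make-up of the mitochondrial reads differed between temperatures without overlap for Mt-nd5 in both genotypes and for Mt-cyb in control rats. The shares of the other genes overlapped in both genotypes. In control rats the transcript-loss index did not overlap between temperatures either. A temperature difference in these shares there cannot be told apart from a difference in the index. Mt-nd5 made up 0.786% ± 0.0459 of the counts of the 9 genes in control_4C and 0.957% ± 0.0712 in control_RT (SD, n = 7 each), and 0.798% ± 0.0447 in KO_4C and 1.01% ± 0.106 in KO_RT (SD, n = 9 each). The cold and room temperature libraries did not overlap on this share in either genotype. Mt-cyb made up 11.9% ± 0.754 in control_4C and 9.32% ± 1.22 in control_RT, without overlap, and 11.4% ± 0.522 in KO_4C and 10.7% ± 1.24 in KO_RT, with overlap. Mt-co2 made up 17.0% ± 1.21 in control_4C and 13.9% ± 1.30 in control_RT, and 15.6% ± 1.22 in KO_4C and 15.8% ± 1.43 in KO_RT. Mt-co3 made up 8.85% ± 0.626 in control_4C and 10.6% ± 0.906 in control_RT, and 8.42% ± 0.409 in KO_4C and 9.36% ± 0.583 in KO_RT. Mt-atp6 made up 40.9% ± 2.04 in control_4C and 43.7% ± 1.68 in control_RT, and 43.1% ± 1.90 in KO_4C and 41.0% ± 1.66 in KO_RT, so the difference between its means had opposite signs in the 2 genotypes. Shares of a fixed sum cannot all move one way, and no test was made on them.

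Knockout against control at room temperature called 0 of the 9 genes in edgeR, while 2.61% of all genes tested were called in either direction. None had an unadjusted p under 0.05, and DESeq2 also called 0. The log2 differences ran from -0.21 for Mt-co3 to 0.19 for Mt-cyb, with adjusted p between 0.305 and 0.918. Mt-co3 averaged 10273.5 ± 814 CPM in KO_RT (SD, n = 9) and 11882 ± 1405 CPM in control_RT (SD, n = 7), and the 95% interval of its difference ran from -0.43 to 0.01 on the log2 scale. Mt-nd1 averaged 12125.5 ± 1041 CPM in KO_RT and 12371.5 ± 1192 CPM in control_RT (log2 -0.03, interval -0.23 to 0.18). The widest interval among the 9 genes was that of Mt-nd2, from -0.11 to 0.45. Outside the 9 genes, Mt-nd6 was lower in KO_RT than in control_RT by a log2 difference of -0.43 ± 0.13, which missed the threshold (adjusted p = 0.0601) but passed with DESeq2 (0.033) and without the 4 libraries that stood apart (0.0131).

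After cold the knockout estimates lay above the control ones for all 9 genes, and again 0 passed the test, where 0.0518% of all genes tested were called. That share stands for 6 genes, a number that ran from 0 to 556 in fits that left out 1 library, with 556 without control_4C replicate 7, while 0 of the 9 genes passed in each of those fits. DESeq2 called 0 as well, and 4 genes had an unadjusted p under 0.05 (Mt-nd1, Mt-nd2, Mt-nd5 and Mt-atp6). Mt-atp6 averaged 40037 ± 7281 CPM in KO_4C (SD, n = 9) and 32331 ± 6400.3 CPM in control_4C (SD, n = 7), a log2 difference of 0.31 ± 0.11 (adjusted p = 0.154, interval 0.08 to 0.54), with 7 of 9 knockout libraries above the control mean. Mt-nd1 averaged 9657 ± 1661 CPM in KO_4C and 8026 ± 1328 CPM in control_4C (log2 0.27 ± 0.10, adjusted p = 0.174). Mt-co2 had the smallest difference (log2 0.12 ± 0.11, adjusted p = 0.664, interval -0.10 to 0.33).

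The interaction asks whether the cold change differed between genotypes, and is the knockout cold change less the control one. It called 0 of the 9 genes in edgeR, where 0.0259% of all genes tested were called, and DESeq2 also called 0. The estimates ran from -0.04 to 0.43 on the log2 scale, and 3 genes had an unadjusted p under 0.05. These were Mt-atp6 (0.43 ± 0.16, adjusted p = 0.223, interval 0.11 to 0.75), Mt-co3 (0.38 ± 0.15, adjusted p = 0.255, interval 0.08 to 0.69) and Mt-nd1 (0.30 ± 0.14, adjusted p = 0.371, interval 0.00 to 0.59). Mt-cyb stood at -0.00 ± 0.16 (interval -0.34 to 0.33) and Mt-co2 at -0.04 ± 0.15 (interval -0.35 to 0.26). The 7 calls in control muscle and 4 in knockout muscle are therefore not shown to differ between genotypes.

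**Figure D4:**
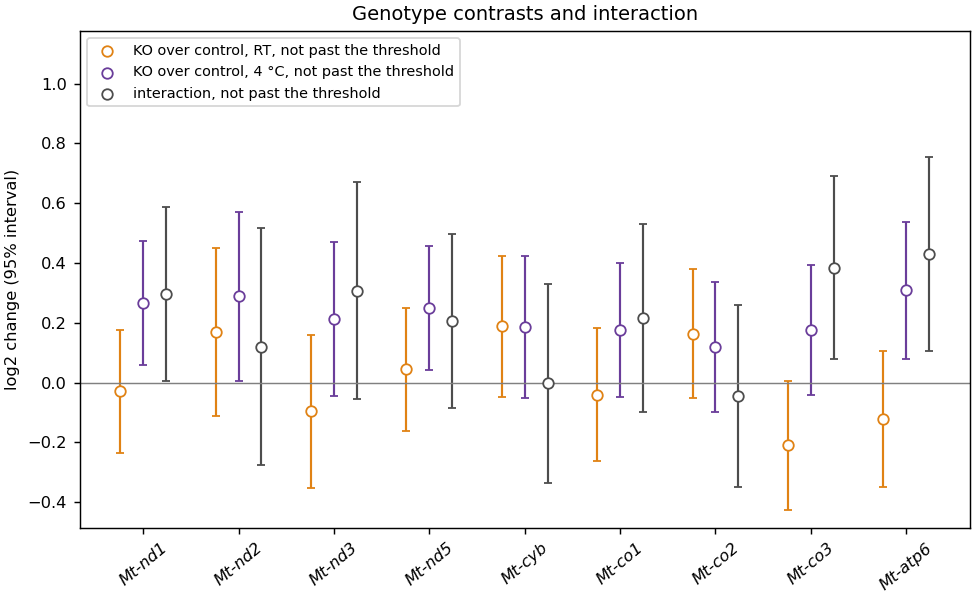
Log2 difference of knockout over control at room temperature and at 4 °C, and the interaction (cold change in knockout minus cold change in control), for the 9 genes, with 95% intervals. No gene passed an adjusted p of 0.05, and at 4 °C all 9 estimates lie above 0, between 0.12 and 0.31.

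The nuclear-encoded subunits of the same complexes were set beside the mitochondrial ones, with 74 of the 79 genes of a fixed list tested. In the cold, 10 of 74 rose and 7 fell in control rats (median log2 -0.06), and 6 rose and 3 fell in knockout rats (median 0.05). Over all genes tested, 12.4% were called higher and 8.28% lower in control rats, and 7.49% and 6.28% in knockout rats. The counts over the 74 genes lay near these shares, which also apply to the counts by complex and by pathway below. In control rats 5 rose and 6 fell without the 4 libraries, and 1 rose and 1 fell with the index as a covariate; in knockout rats 6 rose and 1 fell without the 4 libraries, and 6 rose and 3 fell with the index. Summed over the list, they stood at 52287 ± 5111 CPM in control_4C and 53744 ± 2529 CPM in control_RT, and at 56277 ± 5914 CPM in KO_4C and 53369 ± 3878 CPM in KO_RT. The 9 mitochondrial genes summed to 78647 ± 12860.4 CPM in control_4C and 112178 ± 9240.4 CPM in control_RT, and to 92811.5 ± 15469 CPM in KO_4C and 110167 ± 11148 CPM in KO_RT. The ratio of the mitochondrial to the nuclear sum was 1.37, 1.44 and 1.71 in control_4C, against 1.95, 2.11 and 2.21 in control_RT, without overlap. It was 1.46, 1.63 and 1.85 in KO_4C, against 1.66, 2.06 and 2.31 in KO_RT, with overlap. The overlap came from KO_RT replicate 1 alone (1.66), which is one of the 4 libraries that stood apart. The next lowest KO_RT library, replicate 7, had 2.01, above every KO_4C library.

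**Figure D5:**
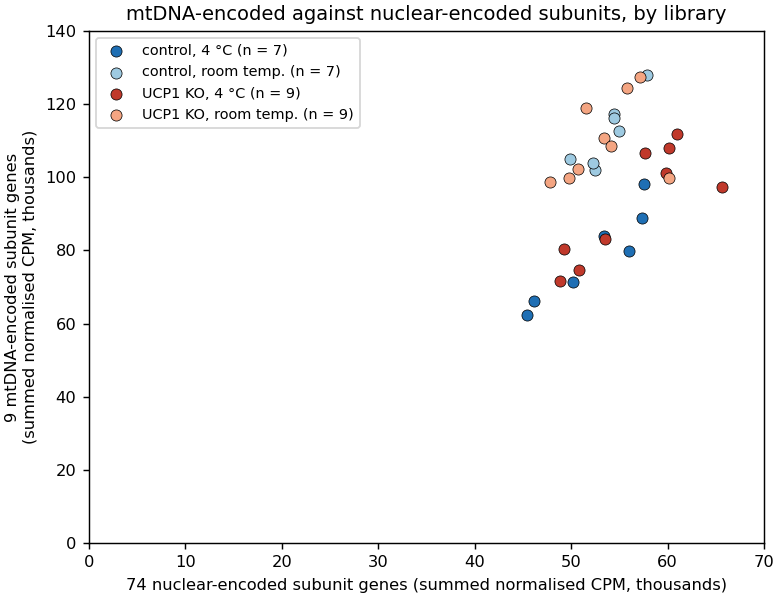
Summed normalised CPM (scaled as the axes state) of the 9 mitochondrial-genome genes, vertical axis, against that of 74 nuclear-encoded subunit genes, horizontal axis, with 1 point per library and both axes from 0. The ratio of the sums averages 1.497 in control_4C and 2.09 in control_RT, and 1.64 in KO_4C and 2.07 in KO_RT.

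By complex, control rats had 3 of 34 nuclear complex I genes higher and 4 lower in the cold, 1 of 4 complex II genes higher, 1 of 9 complex III genes higher, 4 of 12 complex IV genes higher and 1 lower, and 1 of 15 complex V genes higher and 2 lower. Among these Ndufs7 and Ndufs8, iron-sulfur subunits of complex I, fell (log2 -0.49 ± 0.09, adjusted p = 0.000249, and -0.41 ± 0.08, adjusted p = 0.000294). Atp5f1e, the epsilon subunit of the ATP synthase, also fell (-0.48 ± 0.09, adjusted p = 0.000401). With the transcript-loss index as a covariate these 3 missed the threshold (adjusted p = 0.0717, 0.0587 and 0.0672). Ndufb6 of complex I (1.97 ± 0.39, adjusted p = 0.000714), Sdhd of complex II (1.33 ± 0.26, adjusted p = 0.000509) and Cox7c of complex IV (1.36 ± 0.32, adjusted p = 0.00326) rose. These 3 calls were also lost with the index as a covariate (0.37, adjusted p = 0.219; 0.30, adjusted p = 0.279; and 0.03, adjusted p = 0.940). Cox6a1, the complex IV subunit form of non-muscle tissues, rose in control rats (0.36 ± 0.07, adjusted p = 0.00025) and in knockout rats (0.45 ± 0.06, adjusted p = 1.49e-06), and so did Atp5if1, the inhibitor of ATP synthase reversal (0.30 ± 0.10, adjusted p = 0.0309, and 0.48 ± 0.09, adjusted p = 0.000179). The control call of Atp5if1 was lost without the 4 libraries (0.24, adjusted p = 0.0941) and with the index (0.07, adjusted p = 0.768). In knockout rats 2 of 34 complex I genes were higher and 3 lower, 1 of 4 complex II, 1 of 12 complex IV and 2 of 15 complex V genes were higher, and 0 of 9 complex III genes passed. They included Ndufs4 (0.29 ± 0.06, adjusted p = 0.001) and Sdhb (0.33 ± 0.08, adjusted p = 0.00513), which rose, and Ndufa9 (-0.27 ± 0.07, adjusted p = 0.00978), which fell. The Ndufa9 call was lost without the 4 libraries (-0.20, adjusted p = 0.0661).

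Of 9 genes that transcribe mitochondrial DNA, 6 rose and 1 fell in control rats in the cold, and 1 rose and 0 fell in knockout rats. The counts were the same without the 4 libraries, and with the index as a covariate 0 of 9 passed in either genotype. Tfam, which packages the mitochondrial genome and starts its transcription, averaged 85.8 CPM in control_4C and 76.1 CPM in control_RT (log2 0.17 ± 0.13, adjusted p = 0.358), and 89.4 CPM in KO_4C and 84.5 CPM in KO_RT (0.08 ± 0.11, adjusted p = 0.691). Polrmt, the mitochondrial RNA polymerase, averaged 7.40 CPM in control_4C and 9.49 CPM in control_RT (-0.35 ± 0.17, adjusted p = 0.13), and 8.49 CPM in KO_4C and 7.85 CPM in KO_RT (0.11 ± 0.15, adjusted p = 0.667). Mterf2, a member of the mitochondrial transcription termination factor family, rose in control rats (0.74 ± 0.19, adjusted p = 0.0054) and in knockout rats (0.57 ± 0.17, adjusted p = 0.0189). Mterf3, known in mice as a repressor of mitochondrial transcription, rose in control rats (1.47 ± 0.32, adjusted p = 0.00125) and stood at 0.01 ± 0.26 in knockout rats (adjusted p = 0.987). Tefm, the transcription elongation factor, had a log2 change of 0.88 ± 0.27 in control rats (adjusted p = 0.0172). With the transcript-loss index as a covariate the control calls of Mterf2, Mterf3 and Tefm were lost, and the sign of Tefm turned (-0.28, adjusted p = 0.461). The knockout value of Mterf2 then had an adjusted p of 0.054, and with the replicate block one of 0.09.

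Of the 8 replication genes 2 rose in control rats and 1 fell in knockout rats. Ssbp1, the mitochondrial single-strand DNA binding protein, rose in control rats (1.47 ± 0.34, adjusted p = 0.00265), and this call too was lost with the index as a covariate (0.08, adjusted p = 0.865). Polg, the catalytic subunit of the mitochondrial DNA polymerase, was at 2.56 CPM in KO_4C and 3.99 CPM in KO_RT (-0.62 ± 0.21, adjusted p = 0.0438), and at 2.02 CPM in control_4C and 3.08 CPM in control_RT (-0.58 ± 0.24, adjusted p = 0.0858). The knockout call was lost without the 4 libraries (-0.53, adjusted p = 0.139) and with the index (-0.51, adjusted p = 0.133). It was also lost with no filter (adjusted p = 0.0505), with the compared groups alone (0.0637) and with the replicate block (0.317). Of the 32 fits that left out 1 library, 10 lost it as well. Among 20 RNA processing and stability genes 1 rose and 1 fell in control rats, and 2 fell in knockout rats. Lrpprc, which with Slirp protects mitochondrial messages and supports their polyadenylation, averaged 304 CPM in control_4C and 331 CPM in control_RT (-0.13 ± 0.13, adjusted p = 0.548), and 375 CPM in KO_4C and 368 CPM in KO_RT (0.03 ± 0.12, adjusted p = 0.913). Fastkd1, of the FASTK family of mitochondrial RNA-binding proteins, fell in knockout rats (-0.56 ± 0.18, adjusted p = 0.0287). This call was lost in 4 of the 32 fits that left out 1 library (adjusted p up to 0.0606). Of 14 translation genes 1 rose and 1 fell in control rats and 0 passed in knockout rats. Tufm, the mitochondrial elongation factor Tu, fell in control rats (-0.34 ± 0.10, adjusted p = 0.011), a call that was also lost with the index as a covariate (-0.18, adjusted p = 0.426).

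Of 9 nuclear regulators of mitochondrial genes 2 rose and 1 fell in control rats, and 1 rose and 1 fell in knockout rats. Esrrg, an orphan nuclear receptor that drives oxidative metabolism in muscle, rose in control rats (0.69 ± 0.13, adjusted p = 0.000275) and in knockout rats (0.70 ± 0.11, adjusted p = 3.96e-05). Yy1, a transcription factor that acts with PGC-1alpha on mitochondrial genes, fell in control rats (-0.62 ± 0.13, adjusted p = 0.000939) and in knockout rats (-0.50 ± 0.12, adjusted p = 0.00264). With the index as a covariate both control calls were lost (Esrrg 0.34, adjusted p = 0.14, and Yy1 -0.24, adjusted p = 0.305). Ppargc1a, which encodes PGC-1alpha, averaged 4.37 CPM in control_4C and 4.48 CPM in control_RT (-0.05 ± 0.23, adjusted p = 0.898). It averaged 3.67 CPM in KO_4C and 5.36 CPM in KO_RT (-0.55 ± 0.20, adjusted p = 0.0634), a difference that missed the threshold. It passed with DESeq2 (0.0366), and in edgeR without the 4 libraries (-0.63, 0.039), with the index (-0.65, 0.0256), with counts divided by 2 (0.0463) and with the compared groups alone (0.0469).

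Within groups the 9 genes varied together, Mt-co1 less than the others. Across the 32 libraries, Pearson's r between the deviations of 2 members from their group means (log2 CPM) was 0.12 to 0.94 over the 36 pairs, with a median of 0.73. Mt-nd1 and Mt-atp6 made the closest pair, and Mt-cyb and Mt-co1 the least alike. The r of Mt-co1 with the other members ran from 0.12 with Mt-cyb to 0.55 with Mt-nd5. Among pairs without Mt-co1 the lowest r was 0.56, for Mt-nd5 and Mt-cyb. Among 6938 nuclear genes with a mean of at least 5 CPM, the deviations most like the mean of the members were those of Ndufv2 of complex I (r = 0.844), Coq3 of ubiquinone synthesis (0.842), Atp5f1b, the catalytic beta subunit of the ATP synthase (0.826), Ndufb5 of complex I (0.821) and Sdhb of complex II (0.809). At the other end stood Cmip (-0.800), Zyx, the focal adhesion protein zyxin (-0.769), the transcription factor Runx1 (-0.728), Dnajb14 (-0.723) and Gpr137 (-0.716). These correlations describe libraries that share depth and normalisation, and carry no test. Atp5f1b followed the members within groups, yet its own cold change was -0.20 ± 0.10 in control rats (adjusted p = 0.144) and 0.06 ± 0.09 in knockout rats (adjusted p = 0.673).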

How the data were processed

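RNA of 32 gastrocnemius samples was sequenced from the 3′ end (QuantSeq, 50 bp forward reads, per the labels). The authors deposited raw counts per Ensembl gene and a normalised signal table, the same counts divided by 1 size factor per library, which entered no test. R 3.4.3, DESeq2 1.18.1 and the build Rnor_6.0 are named in the submitters' processing notes; the sources used here name no aligner or counter. All deposited counts were even (0 odd values), so each read appears to have been entered in duplicate; counts divided by 2 were an alternative. Nuclear copies of mitochondrial sequence could take or give reads, depending on that counting.

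Groups came from the labels, and KO_RT replicate numbers are those of the descriptions. The names of 2 KO_RT columns fit the title of one sample and the description of another; they entered as KO_RT libraries with no number of their own, are called replicates 1 and 2, and were left out of the replicate block. Replicate libraries all differed beyond sampling noise (chi-square over degrees of freedom at least 11.4). The model was fitted to the counts as deposited by edgeR 4.0.16 (with limma 3.58.1, under R 4.3.3). Its filterByExpr (minimum count 10) kept 11594 genes and left out 1307, TMM factors were computed, and 1 robust quasi-likelihood model with a mean per group covered all libraries. p-values were adjusted over all genes tested at 0.05. The SE is the absolute log2 change over the root of the F statistic, and 95% intervals use 28 residual degrees of freedom. The fit was tested on simulated data.

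The members and the gene lists were chosen with earlier results of these data known. Named genes are the members, the other mitochondrial-genome genes, Tfam, Polrmt, Lrpprc, Ppargc1a, from each list and contrast up to 3 genes that passed the test with the smallest p (not all are printed), and the 5 nearest and 5 farthest genes by correlation. Alternatives were RLE factors, library sizes from nuclear genes, no filter, DESeq2 1.42.0, counts divided by 2, the compared groups alone, a replicate block, an adjusted p of 0.01, leaving out 4 libraries or each in turn, and, added after seeing the data, the transcript-loss index (genes of at least 20 CPM lying at least 1.5 log2 units low in KO_RT replicate 3) as a covariate; the counts over gene lists without the 4 libraries and with the index were also added after seeing the data. Marker and pathway symbols came from the deposited table (11693 genes).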

Additional observations from a re-analysis of the deposited data

Results flagged for a closer look

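A single library stood apart from its group in 2 of 52 group checks, made on the normalised CPM of the mitochondrial-genome genes and the share of counts; chance alone sets apart about 1 group in 20. In control_4C, replicate 7 had the highest Mt-atp8 level, 2825 CPM, while the others lay between 1686 and 2102 CPM. In control_RT, replicate 2, one of the 4 libraries low on the transcript-loss index, had the lowest Mt-cyb level, 8086 CPM, while the others lay between 10303 and 11395 CPM.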

How the results depend on the processing

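Control muscle kept its count of 7 members called under the alternatives run, except the replicate block and the transcript-loss index (8 each). The genotype and interaction contrasts gave 0 throughout. In knockout muscle the index gave 7 in place of 4, the 4 libraries left out 6, DESeq2 and 3 scaling alternatives 5, an adjusted p of 0.01 3, and leaving out 1 library 4 to 7; in control muscle that gave 7 each time, and 0 in the other contrasts. Share differences, leaving out 1 library, were -2.63 to -2.11 points for cold in control rats, -1.39 to -0.946 for cold in knockout rats, -0.236 to 0.212 for genotype at room temperature, 0.926 to 1.44 at 4 °C and 0.957 to 1.48 for the interaction.

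Signs turned as follows, and the cause was not tested. With the index, the genotype difference at room temperature was -0.0614 for Mt-cyb, 0.0267 for Mt-co1 and -0.182 for Mt-nd4l, the interaction 0.228 for Mt-cyb, 0.0958 for Mt-co2 and 0.242 for Mt-nd4l, and the cold change -0.284 for Tefm, -0.201 for Uqcrfs1 and -0.267 for Tfam in control rats and -0.0562 for Tfam and -0.0102 for Lrpprc in knockout rats. Without the 4 libraries, Mt-co1 at room temperature was 0.0136 and Tfam in knockout cold -0.0609. The Mt-cyb interaction was 0.00335 with no filter. Leaving out 1 library gave -0.00135 to 0.0674 for Mt-nd5 and -0.0983 to 3.51e-05 for Mt-co1 (genotype, room temperature), -0.0579 to 0.0455 for the Mt-cyb interaction, -0.00713 to 0.112 for Tfam and -0.0694 to 0.0767 for Lrpprc (cold, knockout) and -0.237 to 0.0409 for Ppargc1a (cold, control). Over single genes, 823 values kept direction and side of the threshold, 41 lost and 21 gained a call, and 14 turned sign.

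Replicate numbers did not pair libraries: those with the same number correlated in their deviations at -0.224 to 0.187. Of the cold libraries checked, only KO_4C replicate 9 correlated best with the room temperature library of its own number. With the replicate block, 8 members were called in control and 6 in knockout muscle, and 0 in the interaction. Over all genes, calls in control cold were 2399 and 434 with the index; at room temperature between genotypes 303, 573 with DESeq2, 708 without the 4 libraries, 1 with the index and 0 with the groups alone; at 4 °C 6, 432 with DESeq2, 121 with RLE factors, 125 with nuclear sizes, 81 with halved counts, 195 with the index, 3 with no filter and 0 with the groups alone; and in the interaction 3, 106 with DESeq2, 288 without the 4 libraries, 8 with the index, 1 with no filter and 1 with the block. Leaving out 1 library gave 1806 to 2827 calls in control cold, 1331 to 1709 in knockout cold, 80 to 792 between genotypes at room temperature (792 without KO_RT replicate 3), 0 to 556 at 4 °C and 0 to 226 in the interaction (226 without KO_RT replicate 3). Depth limits genes of a few CPM more than the members.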
